A study of Homo sapiens with 16 samples.

Results

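Kinesins are motor proteins that walk along microtubules. One set works in dividing cells, where it builds the spindle, moves chromosomes and completes cytokinesis, and its genes are expressed mainly in G2 and M phase. Another set carries vesicles, organelles and RNA along axons, and neurons depend on it because their processes are long. The genes described here are all those of the count table whose symbol is KIF followed by a number and at most 1 letter from A to C (with or without a further digit), which gave 38 of 27037 genes. They were divided by known role into 12 mitotic kinesins, 8 axonal transport kinesins, 7 other cargo kinesins and 11 remaining ones. KIF2B is not analysed here. Of the 38, 34 passed the filter on low counts and were tested: 11 mitotic, 8 axonal, 7 other cargo and 8 remaining kinesins.

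RNA sequencing was done on SK-N-BE(2)C cells, an established adrenergic neuroblastoma cell line in which MYCN is amplified. After 5 days of treatment there were 16 samples, with 4 replicates in each of 4 groups. DMSO was the vehicle. RA was 10 µM all-trans retinoic acid, a retinoid known as a differentiation agent. PB was 1 µM palbociclib, which blocks CDK4/6, the kinases that drive entry into S phase. PB+RA was both agents at these doses. In these cells the study reported few signs of neuronal shape with RA alone, and many neurites with PB and with PB+RA. All groups were grown in the same serum-containing medium, and all are 1 cell line, so they stand for no other neuroblastoma. The comparisons ask how each agent, and both together, move the 2 sets of motors.

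Libraries held 19.5 to 31.6 M counts. Levels are given as counts scaled to library size (CPM), with mean ± SD over 4 samples, and levels of different kinesins are compared only after division by the length of the longest coding transcript (CPM per kb). Where a gene on the opposite strand overlaps a kinesin, its plain CPM is given to show how many reads it has, not as a comparison of levels. A gene was called higher or lower at an adjusted p below 0.05 (edgeR's quasi-likelihood test, Benjamini-Hochberg adjustment over the 15415 genes tested) if its log2 fold change was also beyond 0.5 either side of 0. All 6 adrenergic markers were measured, with a summed level of 2210.0 to 3637 CPM across samples. Single markers moved both ways: GATA3 had means of 107 CPM in DMSO and 58.1 in RA, and TH of 85.9 and 198. Of 8 leukocyte and epithelial markers, 5 were in the table, and they summed to 4.33 to 5.73 CPM in DMSO and to 7.84 to 9.25 CPM in PB+RA. Most of these sums was CD68, with means of 4.49 CPM in DMSO and 5.46 in PB+RA. EPCAM had means of 0.280 in DMSO and 2.87 in PB+RA. Over all samples PTPRC had a mean of 0.101 CPM and KRT14 of 0.00256. Of 6 mesenchymal markers, 5 were in the table and summed to 1009 to 1238 CPM in DMSO, 1749.7 to 2156 in RA, 851 to 1017 in PB and 1078 to 1492 in PB+RA, and their part in the results was not tested. Of these markers FN1 had means of 175 CPM in DMSO and 733 in RA, and CD44 of 88.9 and 83.5. The retinoid target CYP26B1 had means of 1.34 CPM in DMSO and 2.4 in PB, against 153 in RA and 243 in PB+RA.

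The mitotic kinesins fell under PB, and fell further with both agents. With PB 10 of 11 were called lower, with a median log2 fold change of -1.04, where 11.3% of all genes tested were called lower and the median of all genes was 0.03 (0.01 under RA and 0.04 under PB+RA). With PB+RA 11 of 11 were called lower, with a median of -2.29 (range -2.81 to -1.02), where 17.9% of all genes were. With RA 0 of 11 were called by edgeR, where 2.54% of all genes were called lower, and DESeq2 called 1 and limma-voom 0. All 11 estimates lay below 0 (median -0.31, range -0.47 to -0.20), where 7492 of the 15415 genes tested did. In edgeR's test 10 had an unadjusted p below 0.05, and the share of all genes below that value is not given here. A lower level in a bulk sample can come from fewer dividing cells or from less RNA in each cell, and these cannot be told apart. MKI67, a marker of cycling cells, had 456 ± 39.2 CPM in DMSO, 63.1 ± 18.2 in PB+RA, 149.6 ± 13.1 in PB and 407 ± 36.3 in RA, and its part in the fall of the kinesins was not tested.

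**Figure D1:**
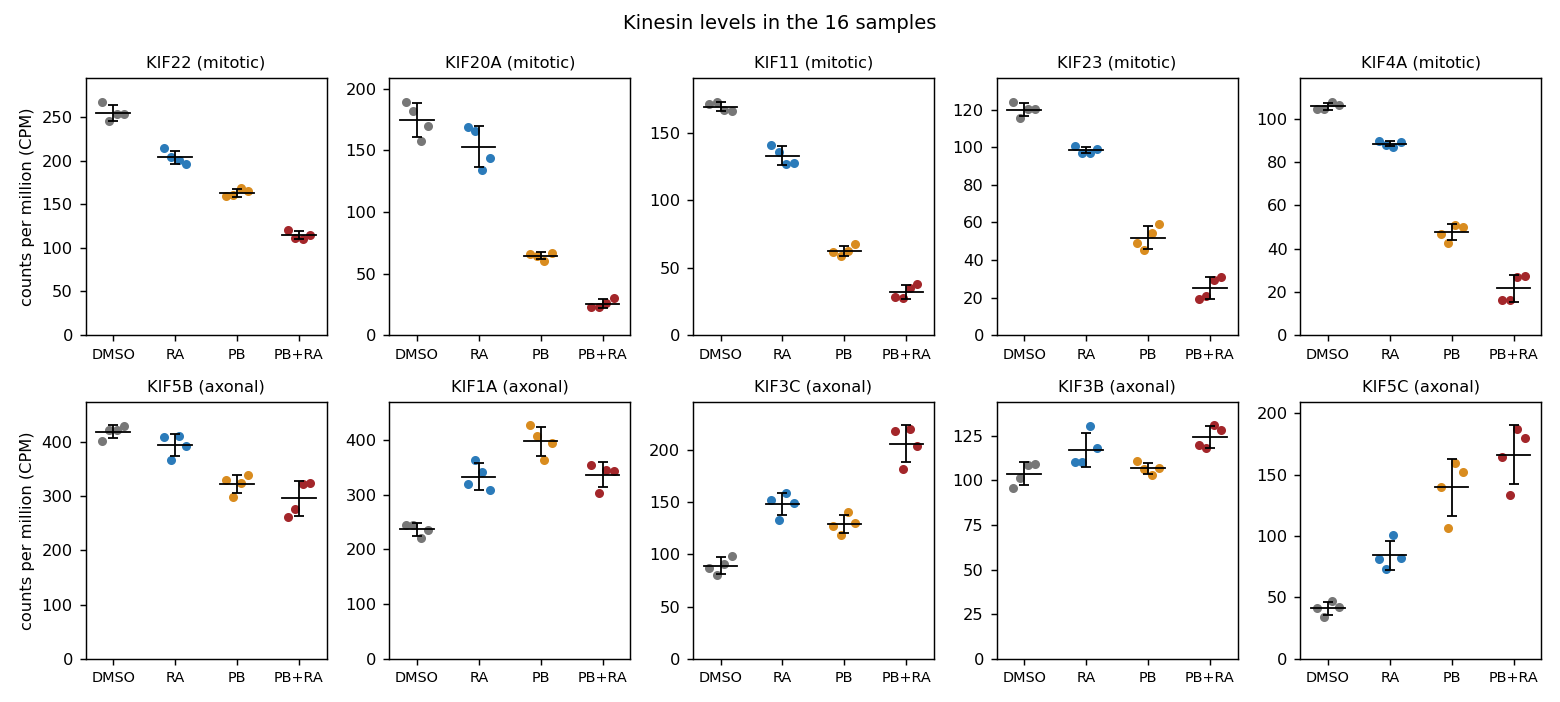
Levels in CPM (linear axes from 0) of the 5 mitotic and the 5 axonal transport kinesins with the highest mean CPM. Each point is 1 of the 4 samples of a group, the line is the mean and the bar is the SD; KIF11 falls from 169 CPM in DMSO to 32.1 in PB+RA, while KIF5C climbs from 41.1 to 166.

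KIF20A (chr5:137514408-137523412 on hg19, plus strand) brings the chromosomal passenger complex to the central spindle. It stood at 189, 182, 157 and 170 CPM in DMSO, at 169, 166, 134 and 144 in RA, at 66.2, 64, 60.6 and 66.8 in PB and at 22.7, 22.8, 26.4 and 30 in PB+RA. The RA samples overlapped the DMSO samples, while every PB sample was below both and every PB+RA sample was below every PB sample. Its log2 difference from DMSO was -1.44 ± 0.09 (SE) under PB (adjusted p = 3.30e-09), -0.20 ± 0.09 under RA (adjusted p = 0.0887) and -2.81 ± 0.10 under PB+RA (adjusted p = 8.51e-13), the largest fall among the kinesins tested. The annotation places exons of BRD8 and CDC23 on the opposite strand over 132 and 74 bases of its exons, and these genes had means of 82.7 and 70.0 CPM against 104 for KIF20A. The strand setting of the count was not given in the sources used here, so reads in those bases may not all be of KIF20A.

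KIF11 (chr10:94333862-94415152, plus strand), the plus-end motor that pushes spindle poles apart, stood at 171, 173, 167 and 166 CPM in DMSO, at 141, 136, 127 and 128 in RA, at 61.9, 58.8, 62.2 and 67.6 in PB and at 28.5, 27.3, 34.8 and 37.7 in PB+RA. The 4 groups did not overlap. The log2 ratio to DMSO was -1.43 ± 0.08 under PB (adjusted p = 1.12e-09), -0.36 ± 0.08 under RA, short of the fold minimum (adjusted p = 0.00233), and -2.43 ± 0.08 under PB+RA (adjusted p = 9.21e-13). KIF23 (chr15:69706585-69740766, plus strand), which forms centralspindlin with RACGAP1, stood at 124, 116, 120.2 and 120.1 CPM in DMSO, at 101, 97, 97.1 and 99 in RA, at 49.2, 45.1, 54.3 and 59.3 in PB and at 19.1, 20.8, 29.5 and 30.9 in PB+RA. Here too the groups kept apart from each other, and the log2 ratio to DMSO was -1.21 ± 0.12 under PB, -0.29 ± 0.12 under RA and -2.29 ± 0.13 under PB+RA (adjusted p = 1.73e-10 for the last).

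KIF4A (chrX:69509954-69640736, plus strand), a chromokinesin that also sets the length of the spindle midzone, stood at 104, 105, 108 and 106 CPM in DMSO, at 90, 87.9, 87.2 and 89.4 in RA, at 46.8, 42.6, 51.1 and 49.9 in PB and at 16.3, 16.3, 27 and 27.3 in PB+RA. In PB+RA replicates 1 and 2 were clearly lower than replicates 3 and 4. The log2 fold change under PB+RA was -2.31 ± 0.14 (adjusted p = 5.63e-10), and it was -2.71 from replicates 1 and 2 alone and -2.05 from replicates 3 and 4 alone. KIF4B, a near-identical copy that lacks introns, was not tested: it had 46 counts over the 16 samples, 29 of them in DMSO, 2 in PB+RA, 4 in PB and 11 in RA, and how the count divided reads between the copies is uncertain. PDZD11 (mean 42.6 CPM) shares 77 bases with exons of KIF4A on the opposite strand.

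KIF2C (chr1:45205490-45233439, plus strand), which takes microtubules apart at kinetochores, stood at 90.6, 93.5, 94.8 and 91.7 CPM in DMSO, at 77.7, 74.2, 74.8 and 73.7 in RA, at 36.3, 32.6, 42.3 and 42.9 in PB and at 12.4, 11.3, 18.5 and 17.8 in PB+RA. Its groups did not overlap, and the log2 ratio to DMSO was -1.26 ± 0.12 under PB and -2.66 ± 0.13 under PB+RA (adjusted p = 3.44e-07 and 4.62e-11). KIF18B (chr17:43002077-43025141, minus strand), which limits the growth of astral microtubules, stood at 113, 87.1, 84.2 and 97.3 CPM in DMSO, at 70.2, 69.7, 67.7 and 68.8 in RA, at 60.8, 59.5, 53.8 and 61.3 in PB and at 20.3, 15.5, 21.7 and 20.2 in PB+RA. It was the mitotic kinesin with the lowest estimate in RA, -0.47 ± 0.09 (adjusted p = 9.68e-04), just short of the fold minimum, which it passed without DMSO replicate 2 (-0.52) or without DMSO replicate 3 (-0.55). DMSO replicate 1, at 113 CPM, was the highest of its samples. KIF18A (chr11:28042166-28129703, minus strand), which damps the movements of chromosomes at metaphase, stood at 20.4, 22.5, 21.6 and 22.9 CPM in DMSO, at 17.1, 18.5, 16.5 and 18 in RA, at 13.6, 11.8, 15.4 and 15.3 in PB and at 5.17, 6.42, 6.18 and 7.63 in PB+RA. Relative to DMSO, its log2 value was -0.64 ± 0.10 under PB and -1.81 ± 0.11 under PB+RA (adjusted p = 6.61e-05 and 3.35e-10).

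Under PB+RA, KIF22 and KIF20B fell least. KIF22 (chr16:29802048-29816706, plus strand), a chromokinesin that pushes chromosome arms towards the spindle equator, had a DMSO level of 102 ± 3.72 CPM per kb of its longest coding transcript. Its rank among the kinesins depends on the length used, since its annotated exons together are far longer than that transcript. It stood at 267, 245, 253 and 253 CPM in DMSO, at 214, 204, 201 and 196 in RA, at 159, 160.3, 169 and 165 in PB and at 121, 112, 110.4 and 115 in PB+RA, and the groups did not overlap. Its log2 ratio to DMSO came to -0.64 ± 0.05 under PB and -1.18 ± 0.05 under PB+RA (adjusted p = 1.32e-08 and 3.57e-12), so a level of 114 ± 4.65 CPM remained with both agents. KIF20B, which acts late in cytokinesis, had -0.41 ± 0.08 under PB, short of the fold minimum (adjusted p = 2.63e-04), and -1.02 ± 0.08 under PB+RA (adjusted p = 7.13e-09). The remaining members lay between: KIF15, which can hold spindle poles apart beside KIF11, had -1.04 under PB and -1.88 under PB+RA, and KIF14, which works with citron kinase in cytokinesis, had -0.82 and -1.74.

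The promoters of these genes were searched for 4 motifs on both strands, in RefSeq windows of GRCh38.p14 from 250 bases before to 50 bases after each annotated start. The CHR (cell cycle genes homology region, TTTGAA or TTCGAA) and the CCAAT box (CCAAT) are known elements of promoters that are active late in the cell cycle. The CHR letters were found for 9 of 11 tested mitotic kinesins (81.8%), against 15.5% of the 11316 tested genes with an entry and 19.5% of all 27305 genes in the table. The CCAAT letters were found for 9 of 11 as well, against 42.8% of tested genes. Of the axonal kinesins with an entry, 1 of 7 held the CHR letters (KIF5B) and 4 of 7 the CCAAT letters. Among the 5 other cargo kinesins with an entry neither motif was found, and of the 6 remaining ones the CHR letters were found for 1, KIF24. Where a gene had several listed starts it was counted if any window held the motif. With only its first listed window, the CHR share of tested genes was 11.2%, and the mitotic count was 9 of 11 again.

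The 100 bases before the start are shown for the 6 mitotic kinesins whose CHR letters lie there, then for KIF20A and KIF2C, whose windows did not hold those letters, and for 2 axonal kinesins. Capitals mark the CHR and the CCAAT box on either strand (a CHR reads TTCAAA and a CCAAT box ATTGG in the reverse orientation), all 5′ to 3′ on the strand of the gene, from RefSeq on GRCh38.p14.
KIF23 (chr15:69414249-69414348, plus strand): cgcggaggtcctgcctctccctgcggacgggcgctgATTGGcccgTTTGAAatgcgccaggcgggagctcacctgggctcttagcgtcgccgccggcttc
KIF4A (chrX:70290004-70290103, plus strand): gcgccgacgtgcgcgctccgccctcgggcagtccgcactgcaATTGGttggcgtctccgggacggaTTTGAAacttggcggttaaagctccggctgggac
KIF11 (chr10:92593030-92593129, plus strand): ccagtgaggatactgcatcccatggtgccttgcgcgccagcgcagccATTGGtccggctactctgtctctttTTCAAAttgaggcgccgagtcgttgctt
KIF15 (chr3:44761694-44761793, plus strand): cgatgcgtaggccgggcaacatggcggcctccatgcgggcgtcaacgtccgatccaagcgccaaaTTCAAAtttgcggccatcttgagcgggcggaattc
KIF22 (chr16:29790651-29790750, plus strand): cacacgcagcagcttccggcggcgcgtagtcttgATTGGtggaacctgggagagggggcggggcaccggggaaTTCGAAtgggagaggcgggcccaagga
KIF18A (chr11:28108157-28108256, minus strand): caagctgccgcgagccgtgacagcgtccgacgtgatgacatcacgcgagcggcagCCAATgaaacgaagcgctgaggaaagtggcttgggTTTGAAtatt
KIF20A (chr5:138179012-138179111, plus strand): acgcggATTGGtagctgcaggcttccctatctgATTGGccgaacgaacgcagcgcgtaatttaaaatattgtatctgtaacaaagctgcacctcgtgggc
KIF2C (chr1:44739737-44739836, plus strand): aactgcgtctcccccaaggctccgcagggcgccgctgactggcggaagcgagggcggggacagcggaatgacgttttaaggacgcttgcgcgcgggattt
KIF3C (chr2:25982498-25982597, minus strand): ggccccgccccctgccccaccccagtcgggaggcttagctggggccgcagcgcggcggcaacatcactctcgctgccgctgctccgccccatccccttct
KIF5C (chr2:148875127-148875226, plus strand): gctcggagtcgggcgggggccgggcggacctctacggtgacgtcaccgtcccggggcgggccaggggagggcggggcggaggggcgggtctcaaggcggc
In KIF23, KIF4A, KIF11, KIF22 and KIF18A a CCAAT box stood upstream of the CHR, which began 55, 34, 28, 27 and 10 bases before the start. In KIF15 the CHR began 35 bases before the start, directly after a match to an E2F motif (TTTGGCGC, TTTGCCGC, TTTCGCGC or TTTCCCGC), the only such match among the tested mitotic kinesins, where 6.48% of tested genes had one. The CHR letters of KIF14, KIF18B and KIF20B lay after the start. The retinoid receptor motif (AGGTCA) was found in 1 of 11 mitotic and 1 of 7 axonal kinesins (KIF20A and KIF5C), against 13.7% of tested genes. The motifs do not overlap one another in these stretches, and a match of letters is not evidence of binding. KIF5A, KIF13B, KIF19, KIF21B, KIF26B and KIF27 had no entry.

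The axonal transport kinesins went the other way, with 1 exception. With PB 5 of 8 were called higher (median log2 fold change 0.57), where 16.9% of all genes were called higher. With RA 3 of 8 were called higher (median 0.40), where 10.8% of all genes were. With PB+RA 4 of 8 were called higher and 1, KIF5B, lower (median 0.68), where 24% of all genes were called higher. KIF5A, KIF5C and KIF3C were called higher in all 3 comparisons. The comparisons share their DMSO samples.

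**Figure D2:**
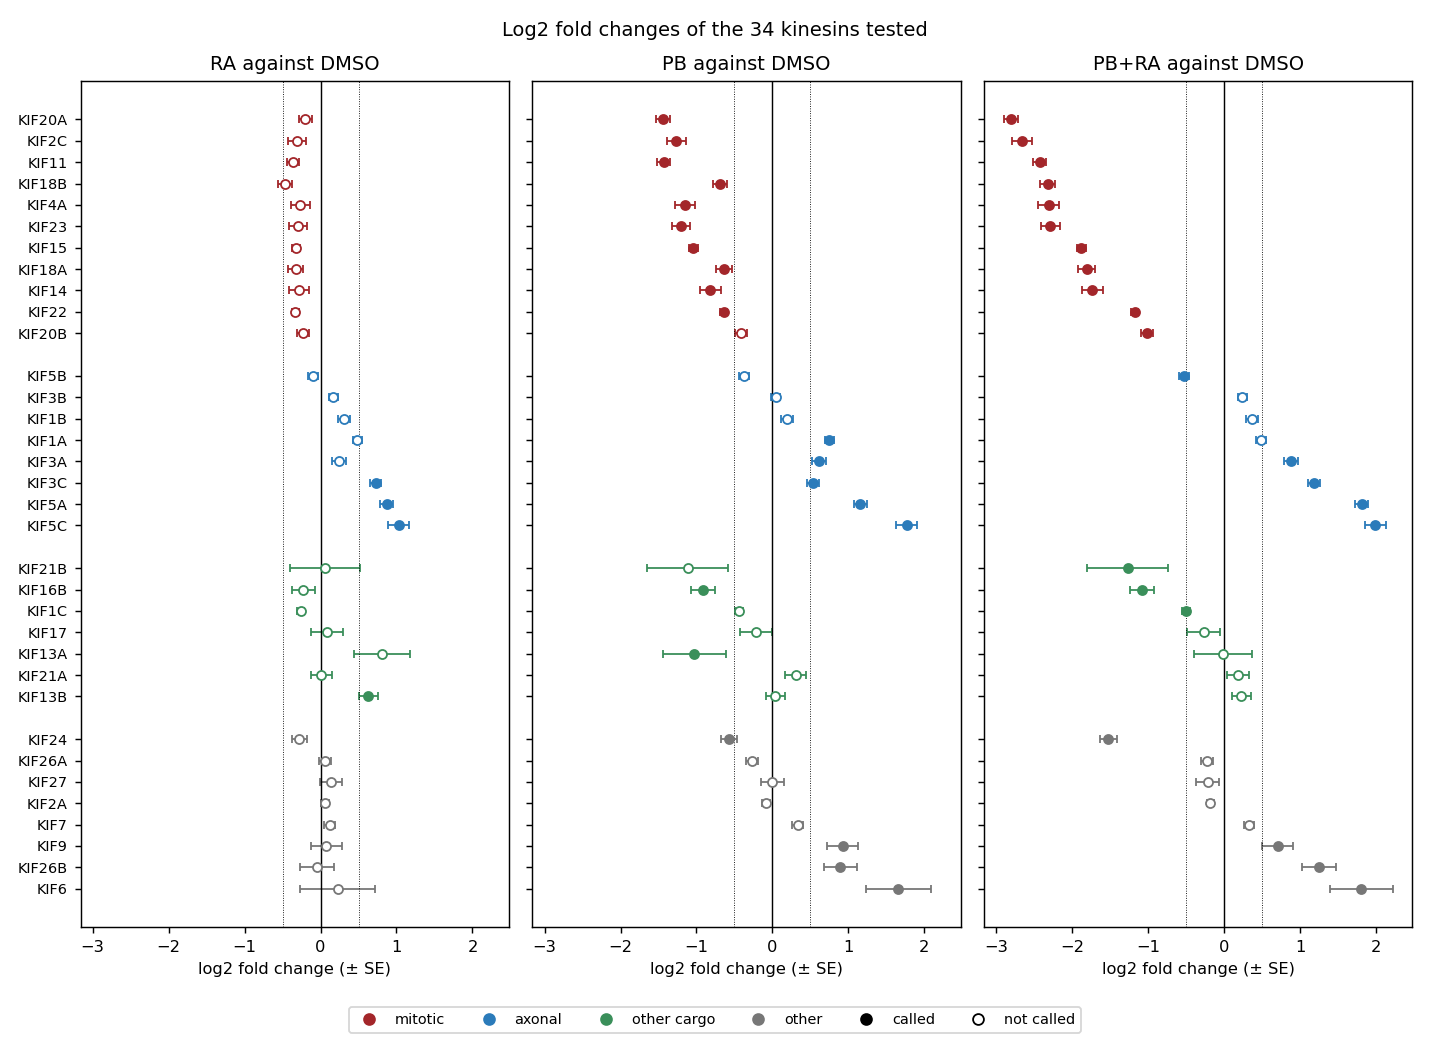
Log2 fold changes ± SE against DMSO of the 34 kinesins tested, in order of the PB+RA value within each class; filled points were called and dotted lines mark the fold minimum of 0.5. The 11 mitotic kinesins lie left of 0 in each panel, and 7 of the 8 axonal kinesins lie right of it.

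Kinesin-1, the main anterograde motor of axons, has 3 heavy chains. KIF5B is made in most cell types, and KIF5A and KIF5C mainly in neurons. KIF5C (chr2:149632819-149883273, plus strand) stood at 41, 34.4, 46.7 and 42.1 CPM in DMSO, at 81.6, 72.8, 101 and 81.8 in RA, at 140, 107, 159.5 and 152 in PB and at 165, 134, 187 and 180.2 in PB+RA. DMSO, RA and PB did not overlap, and PB+RA overlapped PB. Its log2 difference from DMSO was 1.76 ± 0.14 under PB, 1.03 ± 0.14 under RA and 1.99 ± 0.14 under PB+RA (adjusted p = 5.83e-08, 5.22e-05 and 5.19e-09), the largest rise among the axonal kinesins.

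KIF5A (chr12:57939809-57980416, plus strand) stood between 30.4 and 38.4 CPM in DMSO, between 61.6 and 67.5 in RA, between 69.4 and 82.8 in PB and between 103 and 136 in PB+RA. The groups did not overlap, and the log2 ratio to DMSO was 1.15 ± 0.09 under PB, 0.87 ± 0.09 under RA and 1.81 ± 0.09 under PB+RA (adjusted p = 2.60e-11 for the last). Its exons share 71 bases with DCTN2 on the opposite strand, which had a mean of 207 CPM against 74.2 for KIF5A. KIF5B (chr10:32297943-32345353, minus strand) stood at 402, 422, 422 and 429.6 CPM in DMSO, at 410, 367, 411 and 392 in RA, at 329, 299, 325 and 339 in PB and at 262, 276, 322 and 324 in PB+RA. The PB and PB+RA samples overlapped each other and lay below all DMSO samples. Relative to DMSO, its log2 value was -0.53 ± 0.07 under PB+RA (adjusted p = 2.11e-06), -0.37 ± 0.07 under PB and -0.09 ± 0.07 under RA, the last 2 short of the fold minimum. The PB+RA value was near that minimum too, at -0.46 from replicates 3 and 4 alone and -0.64 from replicates 1 and 2 alone.

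The makeup of the heavy chain transcripts differed between the groups. On the CPM per kb scale KIF5B was 84.6, 87.6, 85.1 and 85.9% of the 3 heavy chains in the DMSO samples, 75.7, 74.8, 72.8 and 74.8% in RA, with 62, 65.1, 60.2 and 62.4% in PB and with 48.7, 55.9, 52.5 and 54.2% in PB+RA. The 4 groups did not overlap. The share of KIF5A was 7.10 ± 0.745% in DMSO and 22.1 ± 2.29% in PB+RA, and that of KIF5C 7.11 ± 0.793% and 25 ± 1.39%. Together the 3 heavy chains came to 83.3 ± 2.00 CPM per kb in DMSO and 95.6 ± 9.45 in PB+RA, with 90.4 ± 5.27 in RA and 88.3 ± 6.76 in PB, with the PB+RA samples between 84.1 and 105 and the DMSO samples between 81.1 and 85.3. The shares depend on the length used: with the union of all annotated exons KIF5B was 90.8 ± 0.914% in DMSO and 64.3 ± 2.75% in PB+RA.

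**Figure D3:**
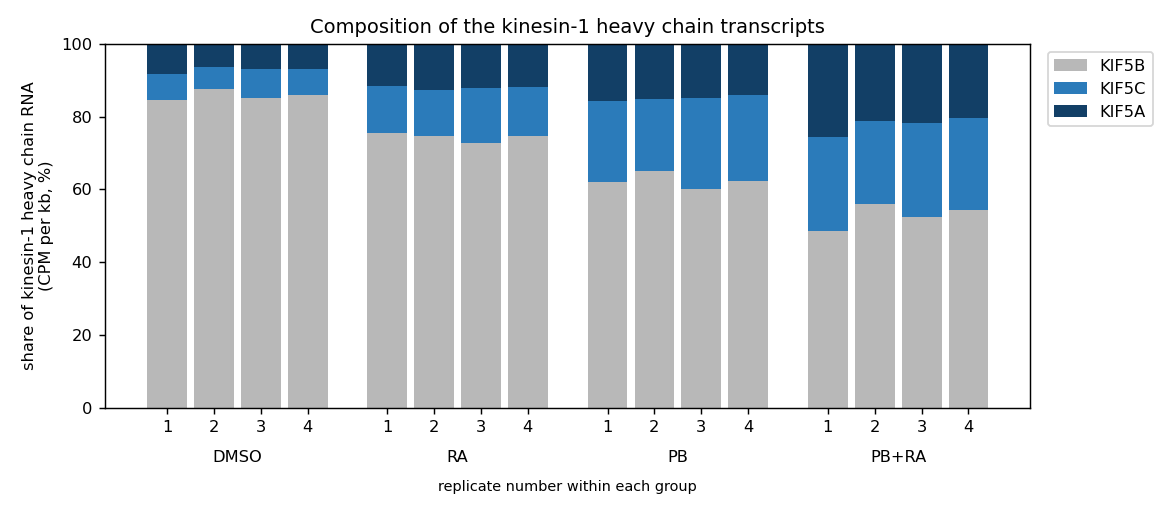
Share of KIF5B, KIF5C and KIF5A in the summed CPM per kb of the 3 kinesin-1 heavy chains, 1 bar per sample, grouped by treatment. The KIF5B share is 84.6 to 87.6% in DMSO and 48.7 to 55.9% in PB+RA.

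Kinesin-2 is a heterotrimer of KIF3A, of KIF3B or KIF3C, and of the accessory protein KIFAP3. KIF3C (chr2:26149467-26205618, minus strand), the chain found mainly in neurons, stood at 87.3, 79.8, 91 and 98.5 CPM in DMSO, at 152, 133, 158 and 149 in RA, at 127, 119, 140.1 and 130 in PB and at 217, 182, 219.9 and 204 in PB+RA. RA and PB overlapped each other, all their samples lay above DMSO, and all PB+RA samples lay above both. Its log2 ratio to DMSO came to 0.72 ± 0.08 under RA and 1.18 ± 0.08 under PB+RA (adjusted p = 4.39e-06 and 1.08e-09). With PB it was 0.53 ± 0.08 (adjusted p = 2.23e-05), near the fold minimum, and it was no longer called without DMSO replicate 1 (0.499), DMSO replicate 2 (0.459) or PB replicate 3 (0.465), or with the GC and length correction (0.419).

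KIF3B (chr20:30865454-30922814, plus strand), which is made widely, stood at 95.4, 101, 108 and 109 CPM in DMSO, at 110.3, 110, 130.1 and 118 in RA, at 111, 106, 103 and 107 in PB and at 119.7, 118, 131 and 128 in PB+RA. PB overlapped DMSO, and the log2 ratio to DMSO was 0.04 ± 0.06 under PB, 0.17 ± 0.06 under RA and 0.23 ± 0.06 under PB+RA, none past the fold minimum. KIF3A, the shared subunit, had 0.61 ± 0.09 under PB, 0.24 ± 0.09 under RA and 0.87 ± 0.09 under PB+RA, and was called under PB and PB+RA (adjusted p = 3.11e-05 and 3.04e-07). On the CPM per kb scale KIF3C made up 41.7 ± 1.83% of the KIF3 transcripts in DMSO and 54.4 ± 2.24% in PB+RA, and KIF3B 42.4 ± 1.69% and 28.7 ± 1.20%. KIFAP3 was called higher under PB (0.95 ± 0.06), RA (0.59 ± 0.06) and PB+RA (1.45 ± 0.07, adjusted p = 1.27e-11).

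KIF1A (chr2:241653178-241763710, minus strand), which carries precursors of synaptic vesicles, had another order of groups. It stood at 245, 245, 222 and 235 CPM in DMSO, at 319.9, 363, 342 and 309 in RA, at 427, 407, 364 and 395 in PB and at 354, 303, 346 and 343 in PB+RA. Every PB sample was above every sample of the other groups, and PB+RA overlapped RA. The log2 ratio to DMSO was 0.75 ± 0.06 under PB (adjusted p = 5.58e-08), 0.49 ± 0.06 under RA and 0.48 ± 0.06 under PB+RA, the last 2 short of the fold minimum (adjusted p = 2.49e-05 and 3.72e-06). Its close relative KIF1B, which carries mitochondria and vesicles, had 0.20 ± 0.08, 0.31 ± 0.08 and 0.36 ± 0.08 and was not called.

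Set side by side on the CPM per kb scale, the sums of the 2 classes changed rank. Which sum is larger depends on the genes listed (12 mitotic and 8 axonal) and on the lengths used. The mitotic kinesins summed to 354, 337, 332 and 340 CPM per kb in the DMSO samples, 290.3, 282, 267 and 269.9 in RA, with 171, 164, 176 and 182 in PB and with 90.7, 86.5, 99.1 and 104 in PB+RA. The axonal kinesins summed to 154, 154, 156 and 161 CPM per kb in the DMSO samples, to 191, 183, 201 and 186 in RA, to 199, 179.8, 192 and 195 in PB and to 212, 192, 226 and 221 in PB+RA. The mitotic sums did not overlap between groups, whereas the axonal sums of RA, PB and PB+RA overlapped each other and lay above DMSO. The ratio of the mitotic to the axonal sum was 2.18 ± 0.0850 in DMSO and 0.447 ± 0.0191 in PB+RA, with 1.46 ± 0.0967 in RA and 0.906 ± 0.0319 in PB between them. With the union of all annotated exons as the length it was 1.76 ± 0.0780 in DMSO and 0.345 ± 0.0224 in PB+RA. KIF22 alone gave 102 ± 3.72 CPM per kb of the mitotic sum in DMSO and 45.9 ± 1.87 in PB+RA. Over all 38 kinesins the sum was 727 ± 13.2 CPM per kb in DMSO and 545 ± 53.7 in PB+RA.

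**Figure D4:**
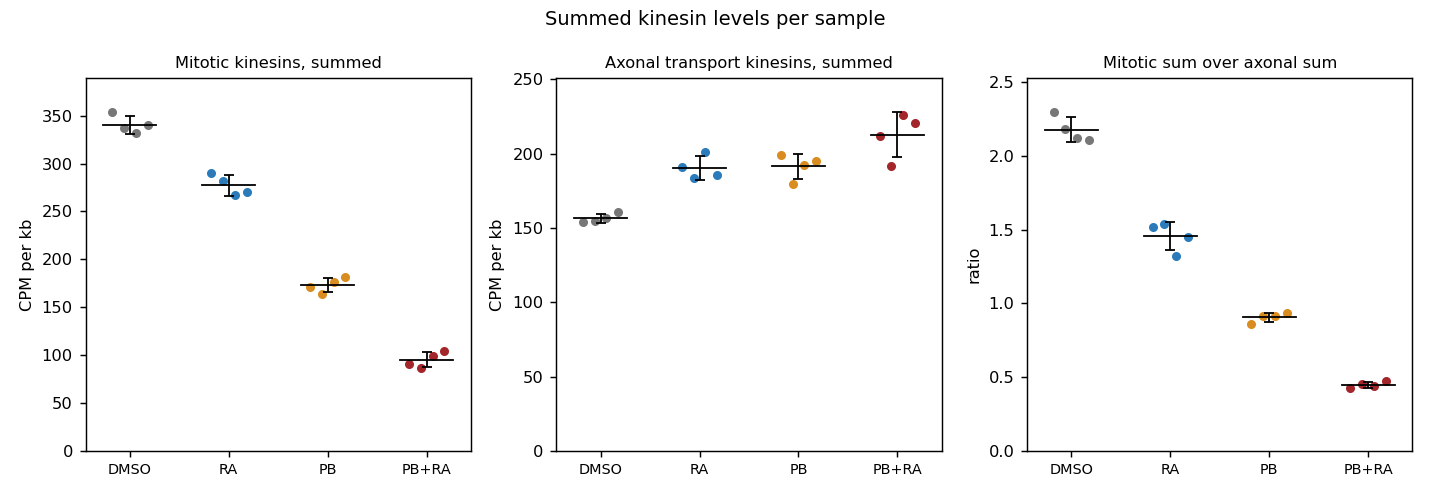
Summed CPM per kb of the mitotic and of the axonal transport kinesins and the ratio of the sums, per sample (points), with the mean (line) and SD (bar) of each group, on linear axes from 0. The ratio falls from 2.18 in DMSO to 0.447 in PB+RA.

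What the second agent adds was read from PB+RA against each single agent. Against PB, 11 of 11 mitotic kinesins were lower (median -1.08, range -1.63 to -0.54), where 7.27% of all genes were called lower, and 2 of 8 axonal kinesins were higher (KIF3C 0.65 ± 0.08 and KIF5A 0.65 ± 0.08), where 9.02% of all genes were called higher. KIF22 was the mitotic kinesin nearest to the fold minimum, at -0.54 ± 0.05. Against RA, 11 of 11 mitotic kinesins were lower (median -1.85), where 14.1% of all genes were, and 3 of 8 axonal kinesins were higher (KIF3A, KIF5A and KIF5C, at 0.63, 0.93 and 0.96), where 14.9% of all genes were. KIF1A was -0.27 ± 0.06 against PB and -0.01 ± 0.06 against RA (adjusted p = 0.00274 and 0.944), within the fold minimum in both.

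Whether the joint change differed from the sum of the single changes was tested as an interaction on the log2 scale. Of the 34 kinesins, 11 were called and all 11 were below additive: 8 mitotic kinesins, KIF1A, KIF5C and KIF24. Of all genes, 3.02% were called below additive and 0.415% above. The largest values were -1.17 ± 0.13 for KIF20A, -1.16 ± 0.13 for KIF18B and -1.08 ± 0.18 for KIF2C (adjusted p = 1.79e-04, 2.44e-04 and 0.00207). For the mitotic genes such a value means that the joint fall exceeded the sum of the single falls: in KIF20A, -1.44 and -0.20 stood beside -2.81. The median over the 11 mitotic kinesins was -0.79, and it was -0.93 from replicates 1 and 2 alone and -0.59 from replicates 3 and 4 alone.

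KIF4A (-0.90 ± 0.19), KIF18A (-0.85 ± 0.15), KIF23 (-0.79 ± 0.17) and KIF11 (-0.64 ± 0.11) were called as well. From replicates 3 and 4 alone KIF11 was short of the fold minimum (-0.43). KIF15 (-0.51 ± 0.08) was near the fold minimum and was lost when any 1 of 11 samples was left out (DMSO 1 or 3, RA 1, 3 or 4, PB 1, 3 or 4, PB+RA 1, 2 or 3), with values from -0.50 to -0.46. KIF14 (-0.64 ± 0.19, adjusted p = 0.0708) was not called by edgeR, but it was with a replicate block, at -0.65 (adjusted p = 0.0127), and without PB+RA replicate 3 (-0.77). DESeq2 (adjusted p = 0.0328), limma-voom (0.0308) and edgeR with the GC and length correction (0.0278) called KIF14 as well. KIF22 (-0.21 ± 0.07) and KIF20B (-0.37 ± 0.11) were not called.

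**Figure D5:**
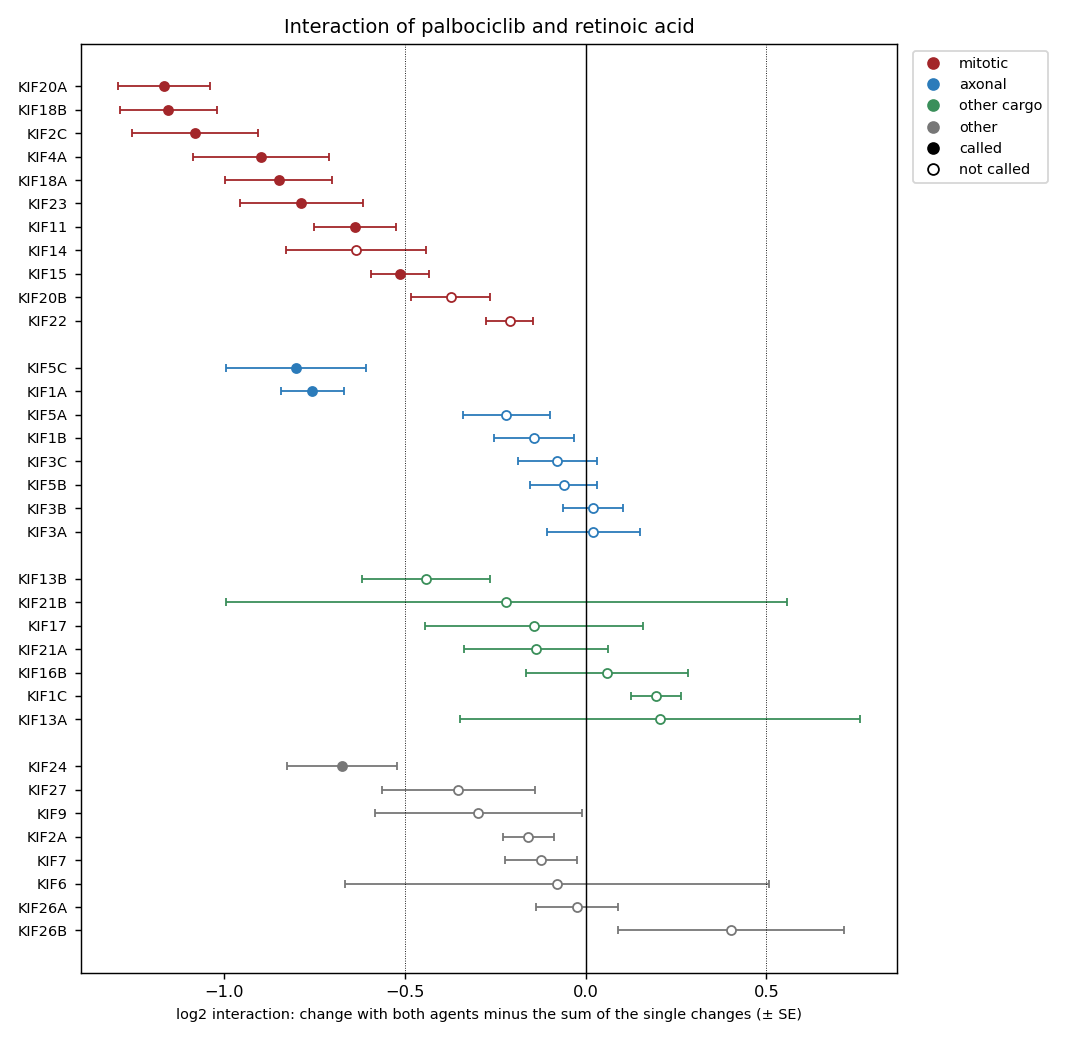
Log2 interaction ± SE of PB and RA for the 34 kinesins tested, by class; filled points were called and dotted lines mark 0.5 either side of 0. The 11 called kinesins lie between -1.17 and -0.51.

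In the axonal class a value below additive has the opposite reading, since the joint rise fell short of the summed rises. KIF1A had -0.76 ± 0.09 (adjusted p = 2.44e-04), with 0.75 and 0.49 for the single agents beside 0.48 for both. KIF5C had -0.80 ± 0.19 (adjusted p = 0.0239), which was lost without DMSO replicate 1, RA replicate 3 or 4, or PB replicate 1, 3 or 4 (values -0.78 to -0.67, adjusted p 0.0533 to 0.0727). It was also lost with no filter on low counts (adjusted p = 0.0975) and from replicates 1 and 2 alone (adjusted p = 0.131). KIF5A (-0.22 ± 0.12, adjusted p = 0.362) and KIF3C (-0.08 ± 0.11, adjusted p = 0.786) were not called.

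The other cargo kinesins did not move as a class. With PB 2 of 7 were called lower (KIF13A and KIF16B), under RA 1 was called higher (KIF13B), and under PB+RA 3 were called lower (KIF16B, KIF1C and KIF21B). Of all genes 11.3% were called lower under PB, 10.8% higher under RA and 17.9% lower under PB+RA. KIF21A, which stops microtubule growth near the cell cortex, had 103 ± 15.7 CPM per kb in PB. It stood at 508, 504, 595 and 594 CPM in DMSO, at 546, 484, 614 and 586 in RA, at 637, 552, 764 and 764 in PB and at 531, 498, 766 and 744 in PB+RA. The PB+RA samples spanned all DMSO samples, and its log2 fold changes were 0.31 ± 0.14, 0.01 ± 0.14 and 0.18 ± 0.14 under PB, RA and PB+RA, none of them called.

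KIF13B, a motor that carries phosphoinositide-bound vesicles, stood at 65.6, 67.8, 72.2 and 69.9 CPM in DMSO, at 104, 87.1, 119.6 and 117 in RA, at 69.8, 62.8, 75.2 and 75.1 in PB and at 73.7, 62.6, 94 and 98.3 in PB+RA. It was called under RA, at 0.63 ± 0.12 (adjusted p = 0.00115), and every RA sample lay above every DMSO sample, but the GC and length correction brought it under the fold minimum (0.439). With PB and PB+RA it had 0.04 ± 0.12 and 0.22 ± 0.12. KIF16B, a motor of early endosomes, had -0.92 ± 0.16 under PB and -1.09 ± 0.16 under PB+RA (adjusted p = 1.21e-04 and 1.35e-05), from 8.34 ± 1.06 CPM in DMSO.

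KIF1C, which carries dense-core vesicles, was just past the fold minimum under PB+RA (-0.51 ± 0.05) and not without DMSO replicate 1 (-0.497). KIF13A, an endosomal motor at a mean of 2.44 CPM, had -1.03 ± 0.41 under PB (adjusted p = 0.0455), a call lost without DMSO replicate 2, 3 or 4 or PB replicate 1, 2 or 3 (adjusted p 0.0504 to 0.115). Under a replicate block KIF13A was also called higher under RA (0.80, adjusted p = 0.00399) and in PB+RA against PB (1.012, adjusted p = 0.00400), and lower in PB+RA against RA (-0.84, adjusted p = 0.00228). KIF21B had a mean of 0.343 CPM and an adjusted p of 0.0466 under PB+RA, and this call was lost without DMSO replicate 1 or 3, RA replicate 3 or PB+RA replicate 1, 2 or 3 (adjusted p 0.0546 to 0.161). KIF17, a dendritic motor, was not called.

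Of the 8 tested remaining kinesins, 3 rose and 1 fell under PB, and the same 4 genes did so under PB+RA, while under RA edgeR, DESeq2 and limma-voom each called 0 (1 had an unadjusted p below 0.05). Of all genes 16.9% rose and 11.3% fell under PB, and 24% and 17.9% under PB+RA, so with 8 genes these counts are near the background. KIF26A, a relative without motor activity that is known to restrain growth factor signalling in enteric neurons, had 94.4 ± 4.80 CPM per kb in DMSO. It stood at 698, 639, 622 and 642 CPM in DMSO, at 699, 627, 740.2 and 665 in RA, at 519, 472, 597 and 567 in PB and at 585, 485, 602 and 588 in PB+RA. PB lay below DMSO in every sample, yet the log2 fold change of -0.27 ± 0.08 was short of the fold minimum. KIF2A, a microtubule depolymerase that trims neurite branches, stood at 130.4, 131, 126 and 128 CPM in DMSO, at 141, 138, 133 and 129 in RA, at 133, 121, 117 and 115 in PB and at 110, 112, 119 and 122 in PB+RA. It had -0.09 ± 0.05 under PB and -0.19 ± 0.05 under PB+RA, and 2446 bases of its exons are shared with DIMT1 on the opposite strand (mean 54.4 CPM against 125 for KIF2A). An alternative with wider class lists counted KIF2A and KIF24 as mitotic. KIF2A was not called against DMSO under any treatment, so on that list not all mitotic kinesins were called lower.

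KIF24, a centriolar kinesin that holds back cilium formation in cycling cells, was called lower, opposite to the 3 of this group that were called higher. It stood at 10.7, 10.7, 12.6 and 12 CPM in DMSO, at 10.9, 8.90, 9.42 and 8.96 in RA, at 7.55, 7.69, 7.65 and 7.88 in PB and at 4.49, 3.28, 3.96 and 4.51 in PB+RA. Its log2 difference from DMSO was -0.58 ± 0.11 under PB, -0.28 ± 0.10 under RA and -1.53 ± 0.11 under PB+RA (adjusted p = 2.13e-04, 0.0482 and 3.15e-09). The PB+RA samples were below all others, the PB samples below all of DMSO and RA, and RA overlapped DMSO. Its interaction of -0.67 ± 0.15 (adjusted p = 0.0155) was lost without DMSO replicate 1 (-0.60, adjusted p = 0.0571). It was also lost with no filter on low counts (adjusted p = 0.0509). Replicates 1 and 2 alone gave -0.86 and replicates 3 and 4 alone -0.43, neither of them called (adjusted p = 0.0782 and 0.140). On the opposite strand UBAP1, at a mean of 31.5 CPM against 8.19, shares 144 bases of its exons.

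KIF26B, KIF9 and KIF6 rose. KIF26B, linked to cell adhesion and migration, stood at 71.5 ± 19.8 CPM in DMSO and 173 ± 31.7 in PB+RA, with 0.90 ± 0.22 under PB and 1.25 ± 0.22 under PB+RA (adjusted p = 0.00340 and 1.70e-04). KIF9, a motor of motile cilia, had 0.92 ± 0.20 and 0.70 ± 0.20, at a mean of 6.42 CPM, and KLHL18 (59.4 CPM) and KIF9-AS1 (1.31 CPM) share 178 and 870 bases with its exons on the other strand. KIF6, a ciliary kinesin at 0.371 CPM, had 1.66 ± 0.43 and 1.80 ± 0.42. KIF7, a regulator of Hedgehog signalling in cilia that shares 589 exonic bases with TICRR on the opposite strand, had 0.33 ± 0.07 and 0.33 ± 0.07, and KIF27, its close relative, had -0.22 ± 0.15 under PB+RA, neither of them called. The untested KIF25, KIF12 and KIF19 had 30, 11 and 8 counts over all 16 samples, so no difference in them was detectable at this depth.

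The genes that work with these motors were counted from lists of known partners. Of 16 mitotic partners, 15 were called lower under PB, 1 under RA (BIRC5, -0.51) and 16 under PB+RA (median -1.995), and 13 were below additive. The shares of all genes called in these directions were 11.3%, 2.54%, 17.9% and 3.02%, so the count under RA was close to that of all genes. AURKB, the kinase of the chromosomal passenger complex that KIF20A carries, had -1.75 ± 0.13 under PB and -3.33 ± 0.14 under PB+RA (adjusted p = 1.27e-11). NUSAP1, a spindle protein, had -2.97 ± 0.18 and BIRC5, of the same complex as AURKB, -2.69 ± 0.12 under PB+RA. CENPE, the kinetochore kinesin whose symbol lies outside the KIF names, had -0.80 ± 0.10 under PB, -0.31 ± 0.10 under RA and -1.91 ± 0.10 under PB+RA, and an interaction of -0.80 ± 0.14 (adjusted p = 0.00355).

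Of 25 cargo partners (kinesin light chains, adaptors and linkers), 23 were tested, and 9 were called higher under PB, 4 under RA and 14 under PB+RA (median 0.66). Of all genes 16.9%, 10.8% and 24% were called higher, and the count under RA was not far from that share. SYBU, which links kinesin-1 to syntaxin vesicles, had 1.76 ± 0.06 under PB, -0.06 ± 0.06 under RA and 1.53 ± 0.06 under PB+RA (adjusted p = 2.84e-11, 0.483 and 5.37e-12). KIFAP3, given above, had the second largest rise under PB+RA, and FEZ1, a kinesin-1 adaptor, followed with 1.43 ± 0.60 (adjusted p = 0.0457), but at a level near 0, with 0.187 ± 0.104 CPM in DMSO and 0.541 ± 0.426 in PB+RA. With RA, HAP1 (1.41 ± 0.32) and KIFAP3 were among the genes that rose. The light chain KLC1 stood at 233 ± 6.04 CPM in DMSO, 403 ± 33.1 in PB+RA, 317 ± 27.7 in PB and 283 ± 14 in RA.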

How the data were processed

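The titles of the samples gave their groups and replicate numbers. Biological replicates were passages of the line plated as separate experiments, per the study's methods. The authors selected polyadenylated RNA, made directional paired-end libraries, trimmed reads with Trim Galore 0.6.4 and aligned them to hg19 with STAR 2.6.1d (versions from the submitters' processing notes), and deposited raw counts per gene symbol with no normalization. The annotation release and the strand setting of the counts are not given in the sources used here. Levels are the deposited CPM, which the authors scaled to library size. A deposited table of the authors' DESeq2 comparisons (log2 fold changes and adjusted p-values) was not used.

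Counts were fitted in R 4.3.3 with edgeR 4.0.16: filterByExpr (15415 of 27037 genes), TMM factors (0.983 to 1.02), a quasi-likelihood fit with robust dispersions over all 16 samples, and a coefficient per group. The SE was taken as the size of the log2 fold change over the root of its F statistic. The interaction is the PB+RA change minus the sum of the single changes. Each treatment was set against DMSO, and the joint treatment also against either agent alone. Alternatives used DESeq2 1.42.0, limma 3.58.1, other filters, scalings and thresholds, wider class lists, subsets of samples and a GC and length correction. The fit was tested on simulated data. Samples of the same number deviated together from their group means in all 24 pairs (correlation 0.33 to 0.573). Samples of different numbers were not compared in this way. In each group, replicates 1 and 2 were closer to each other than to 3 or 4, and 3 and 4 were closer to each other than to 1 or 2. In PB+RA the chi-square per gene between 2 samples was 9.37 and 5 within these sets, and 28.4 to 31.1 across them. The split was weaker in RA, at 9.66 and 3.51 within the sets and 12.5 to 21.3 across them. The correlation does not separate pairing by number from this split. The shared numbers were taken as pairs, and a fit with the replicate as a block was run beside the main fit. The SEs and the shares of all genes printed here are from the main fit, which leaves that pairing out.

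Members, classes, partner lists and motifs were chosen with earlier results of these data known, and no list is independent evidence of its direction. Values in every sample are given for the 5 mitotic, 5 axonal, 2 other cargo and 2 remaining kinesins of highest mean CPM, for kinesins of at least 1 CPM called opposite to their class against DMSO, and for the 6 largest called interactions. KIF5A is given in addition, since the kinesin-1 shares rest on it, and was chosen after its values were seen. Of a partner list at most 3 called genes in each direction are named, some genes of the lists are not reported here, and KLC1 was added after its values were seen. Gene positions and transcript lengths are from GENCODE models mapped to GRCh37, and promoter windows, with 32 of 38 kinesins matched, from RefSeq on GRCh38.p14. The choice of window for genes with several starts and of transcript length were made after seeing those tables. At the depth of these libraries 1 CPM stands for 19.5 to 31.6 counts.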

Additional observations from a re-analysis of the deposited data

Results flagged for a closer look

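Among the 34 tested kinesins in 4 groups (136 sets of 4 samples), 3 held a sample far from the other 3 of its group by Dixon's test, where chance alone gives about 1 in 20. KIF26A in PB+RA had replicate 2 at 485 CPM, below the other 3 samples (gap 0.858 of the range). KIF5A in RA had replicate 3 at 67.5 CPM, above 61.6 to 62.3 in the others (gap 0.872 of the range). KIF7 in PB had replicate 2 at 59.6 CPM, the highest of its group (gap 0.890 of the range).

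For 11 kinesins the effect of RA differed between cells with and without PB, by the edgeR test of the interaction. On the log2 scale it was -1.17 for KIF20A, -1.16 for KIF18B, -1.08 for KIF2C, -0.90 for KIF4A, -0.85 for KIF18A, -0.79 for KIF23, -0.64 for KIF11 and -0.51 for KIF15 among the mitotic kinesins, -0.80 for KIF5C and -0.76 for KIF1A among the axonal ones, and -0.67 for KIF24. Among these, the estimates for RA with and without PB had opposite signs for KIF1A: it was above DMSO with RA alone (0.49) and below PB when RA was added to PB (-0.27, short of the fold minimum, as was the former).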

How the results depend on the processing

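Over 204 single-kinesin results (34 genes in 5 comparisons and the interaction) there were 5641 recomputed values. Of these, 5448 kept their side of the threshold, 119 were no longer called and 74 became called. Among results called in the chosen fit or in the alternative, 0 turned in direction. The direction of results called in neither was not counted, and some of those changed sign. Leaving out 1 sample at a time, the counts were 10 to 10 for mitotic kinesins lower with PB, 0 to 1 with RA, and 11 to 11 with PB+RA against DMSO, PB or RA. Axonal kinesins higher numbered 4 to 5 with PB, 3 to 3 with RA, 4 to 4 with PB+RA, 2 to 2 against PB and 3 to 4 against RA, and kinesins called for the interaction 8 to 11. The mitotic count with RA, 0 in the chosen fit, was 1 (KIF18B) with RLE size factors, DESeq2, no filter on low counts, the GC and length correction, or replicates 1 and 2 alone. With no fold minimum it was 6, and the axonal counts were 6 with RA, 7 with PB+RA and 4 against PB. With a log2 minimum of 1, mitotic counts were 6 with PB and 6 against PB, axonal counts 2 with PB, 1 with RA, 0 against PB and 0 against RA, and the interaction count 3. The shares of all genes called with no fold minimum or with a minimum of 1 are not given here. These counts therefore cannot be set against a background.

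The replicate numbers were taken to pair the samples. With a replicate block the interaction count was 12 in place of 11. The 4 calls that changed were that of KIF14 for the interaction and 3 of KIF13A, given with those genes. The block changed no other call of a kinesin. Over all genes it moved the interaction calls from 64 higher and 466 lower to 190 and 981. The GC and length correction moved the median of all genes with RA from 0.01 to -0.10, and the calls over all genes from 1661 higher and 392 lower to 1268 and 780 with RA, from 2606 and 1746 to 2029 and 2091 with PB, and from 64 and 466 to 114 and 343 for the interaction. Under that correction the median of the mitotic kinesins with RA was -0.40 and that of the axonal kinesins 0.22, so that, relative to the median of all genes, both kept their direction. Calls close to the fold minimum (KIF3C with PB, KIF5B and KIF1C with PB+RA, KIF15 for the interaction) were each lost under at least 1 alternative, and the cause was not tested.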

Other observations

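Cytoplasmic dynein, the motor that carries cargo back to the cell body and also works at the spindle, was measured through 24 tested genes of dynein and dynactin. With PB 2 were called higher and 1 lower, and with PB+RA 5 were called higher and 1 lower (median log2 fold change 0.21), and with RA the estimates lay between -0.26 and 0.38. Of all genes 16.9% were called higher with PB and 24% with PB+RA, so the counts of higher genes were not above the background. DYNC1I1, the intermediate chain made mainly in neurons, had 1.13 ± 0.09 with PB, 0.07 ± 0.09 with RA and 1.62 ± 0.09 with PB+RA (adjusted p = 2.34e-08, 0.542 and 9.66e-11), and stood at 23.2 ± 1.22 CPM in DMSO and 72.5 ± 6.41 in PB+RA. The 1 lower gene was NDE1, a dynein regulator needed in dividing neural progenitors, at -1.32 ± 0.15 with PB and -1.91 ± 0.15 with PB+RA. Among the minus-end kinesins KIFC2, which is made in neurons, had 0.67 ± 0.12 with PB and 0.89 ± 0.12 with PB+RA (adjusted p = 2.12e-04 and 6.94e-06). KIFC3 had -0.09 ± 0.06 and -0.47 ± 0.06, short of the fold minimum (adjusted p = 0.227 and 6.50e-06), and KIFC1, at a mean of 0.0342 CPM, was not tested. How the count treated reads of KIFC1 is not known, so this low value is not evidence that its RNA is absent.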
